A study of Mus musculus with 18 samples.

Results

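Amino acid transporters carry amino acids across the plasma membrane. A set of 10 of their genes was followed by symbol (Slc1a2, Slc1a4, Slc1a5, Slc3a2, Slc7a1, Slc7a2, Slc7a5, Slc7a8, Slc38a1, and Slc38a2), among 29875 genes in the deposited counts, and all 10 passed the filter on low counts that left 13844 genes. The cells were wild-type C57Bl6/J mouse dendritic cells (DCs), immune cells that present antigen and follow CCL19, a chemokine of lymph nodes. They were grown from the bone marrow of mice aged 8 to 12 weeks with a supernatant that contains GM-CSF and matured on day 8 with LPS (200 ng/ml) for 24 hours, which all groups share, controls included. The DCs were placed in bovine collagen gels of 1.7 or 2.6 mg/ml or, more densely, 3.5 or 4.4 mg/ml in a chamber with a CCL19 gradient, and RNA was taken 5 hours later. DCs in such chambers with no collagen (suspension) formed the control groups, of which one is titled plus CCL19 and the other carries no such word. Their titles and library names contradict each other on CCL19, so the groups are named by title (plus and without) and no direction for CCL19 is drawn. Each of the 6 groups has 3 biological replicates.

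Amino acid transport is shared among families that differ in cargo and in mechanism. Sodium-coupled carriers such as Slc38a1 and Slc38a2 load cells with glutamine and other small neutral amino acids, and exchangers then trade these for others. The heavy chain Slc3a2 (CD98) pairs with light chains such as Slc7a5 (LAT1) or Slc7a8 (LAT2), and the pair imports leucine and other large neutral amino acids. Cationic carriers such as Slc7a1 and Slc7a2 bring in arginine, a substrate of nitric oxide synthase and arginase in activated myeloid cells. The set was proposed with results of these data known. Slc1a2 and Slc38a2 are also in the study's own heat map of genes that rise in denser collagen, which was drawn from these libraries. Their values are therefore given as a description, with no test, and counts of genes that passed a test are over the other 8.

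Library totals ranged from 13062944 to 28059839 counts, with a median of 17344954, and 3 counts corresponded to 0.107 to 0.230 CPM (counts scaled to library size, on library sizes scaled by the TMM method; floors use total counts and cover counting error only). All 10 DC markers had counts, and their summed level ranged from 15691 to 52793 CPM. The summed level of 10 eosinophil markers ranged from 121 to 1385 CPM in suspension and from 14.8 to 171 CPM in collagen, and their part in the comparisons below was not tested. That of 10 macrophage markers ranged from 1953 to 3154 CPM in replicate 1 and from 463 to 2296 CPM in replicates 2 and 3. The 10 neutrophil markers summed to 636 to 9766 CPM in suspension and 1046 to 5174 CPM in collagen, the 10 of basophils and mast cells to 83.2 to 379 CPM, and those of T, B, and NK cells to at most 13.9 CPM, and their part was not tested either. The study's methods give male mice, but replicates 1 and 2 had 29.3 to 229 CPM of Xist and no more than 2 counts over the Y-linked genes, whereas replicate 3 had no Xist and 54.7 to 183 CPM of Y-linked genes. Names of libraries that carry 1 replicate number share a prefix that holds a date, so every comparison was also fitted with the replicate number as a block. The prefixes of replicates 1 and 3 start alike, and that of replicate 2 starts otherwise. In bulk RNA, fewer cells of a type and less RNA per cell cannot be told apart.

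Both sodium-coupled glutamine carriers had higher means in collagen than in suspension. Slc38a1 (SNAT1, ENSMUSG00000023169, chromosome 15 from 96571418 to 96642913 of GRCm38, as all coordinates here), a carrier of glutamine and other small neutral amino acids, was 48.2 ± 11.8 CPM in suspension (SD, n = 6) and 71.1 ± 20.3 CPM in collagen (SD, n = 12), and its rise passed the test. In replicates 1, 2, and 3, respectively, it was 39.9, 47.9, and 41.7 CPM in suspension titled plus CCL19 and 51.7, 69.9, and 37.9 CPM in suspension titled without. In collagen it was 47.3, 67.9, and 38.7 CPM at 1.7 mg/ml, 60.9, 84.7, and 91.9 CPM at 2.6 mg/ml, 83.6, 84.9, and 44.9 CPM at 3.5 mg/ml, and 95.2, 92.4, and 61.2 CPM at 4.4 mg/ml. The loosest gel lay among the suspension libraries, and from 2.6 mg/ml on 6 of the 9 gels lay above all of them, although the suspension range of 37.9 to 69.9 CPM overlapped with every density. The log2 fold change between the mean of the 4 collagen groups and the mean of the 2 suspension groups was 0.55 (standard error 0.20) with an adjusted p of 0.0811 (edgeR quasi-likelihood F test, Benjamini-Hochberg over 13844 genes). Within replicates the log2 difference was 0.61, 0.50, and 0.49, so that collagen was higher in 3 of 3. The call is close to the threshold of 0.1. Without replicate 1, 2, or 3, the adjusted p was 0.254, 0.286, and 0.12, and without replicate 2 at 4.4 mg/ml it was 0.104. With no filter on low counts it was 0.242. With the replicate block the log2 fold change was again 0.55 with an adjusted p of 0.0173.

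Slc38a2 (SNAT2, ENSMUSG00000022462, chromosome 15 from 96687392 to 96699730), the related carrier whose mRNA is known to rise upon amino acid shortage and hypertonic stress, had group means from 38.2 to 401 CPM. It was 33.1, 43.8, and 37.8 CPM in suspension titled plus CCL19 and 74.0, 96.3, and 40.1 CPM in suspension titled without, in replicates 1, 2, and 3. It was 71.6, 120, and 58.6 CPM at 1.7 mg/ml, 153, 207, and 342 CPM at 2.6 mg/ml, 272, 136, and 79.7 CPM at 3.5 mg/ml, and 628, 433, and 142 CPM at 4.4 mg/ml. The libraries at 2.6 and 4.4 mg/ml were all above the highest suspension library, whereas those at 1.7 and 3.5 mg/ml overlapped with suspension. Ordered by mean, the groups ran from suspension plus (38.2 CPM) through suspension without (70.1 CPM), 1.7 mg/ml (83.3 CPM), 3.5 mg/ml (163 CPM), and 2.6 mg/ml (234 CPM) to 4.4 mg/ml (401 CPM), and the ranges of each pair of neighbors overlapped. The replicates differed in shape. Against suspension of the same replicate, replicate 1 was higher by 0.53, 1.63, 2.46, and 3.66 on the log2 scale from the loosest to the densest gel, in the order of density. Replicate 2 was higher by 0.88, 1.67, 1.07, and 2.73, and replicate 3 by 0.59, 3.13, 1.03, and 1.86, with its highest value at 2.6 mg/ml. The fitted log2 fold change of collagen against suspension was 1.87 (standard error 0.35), given without a test.

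**Figure D1:**
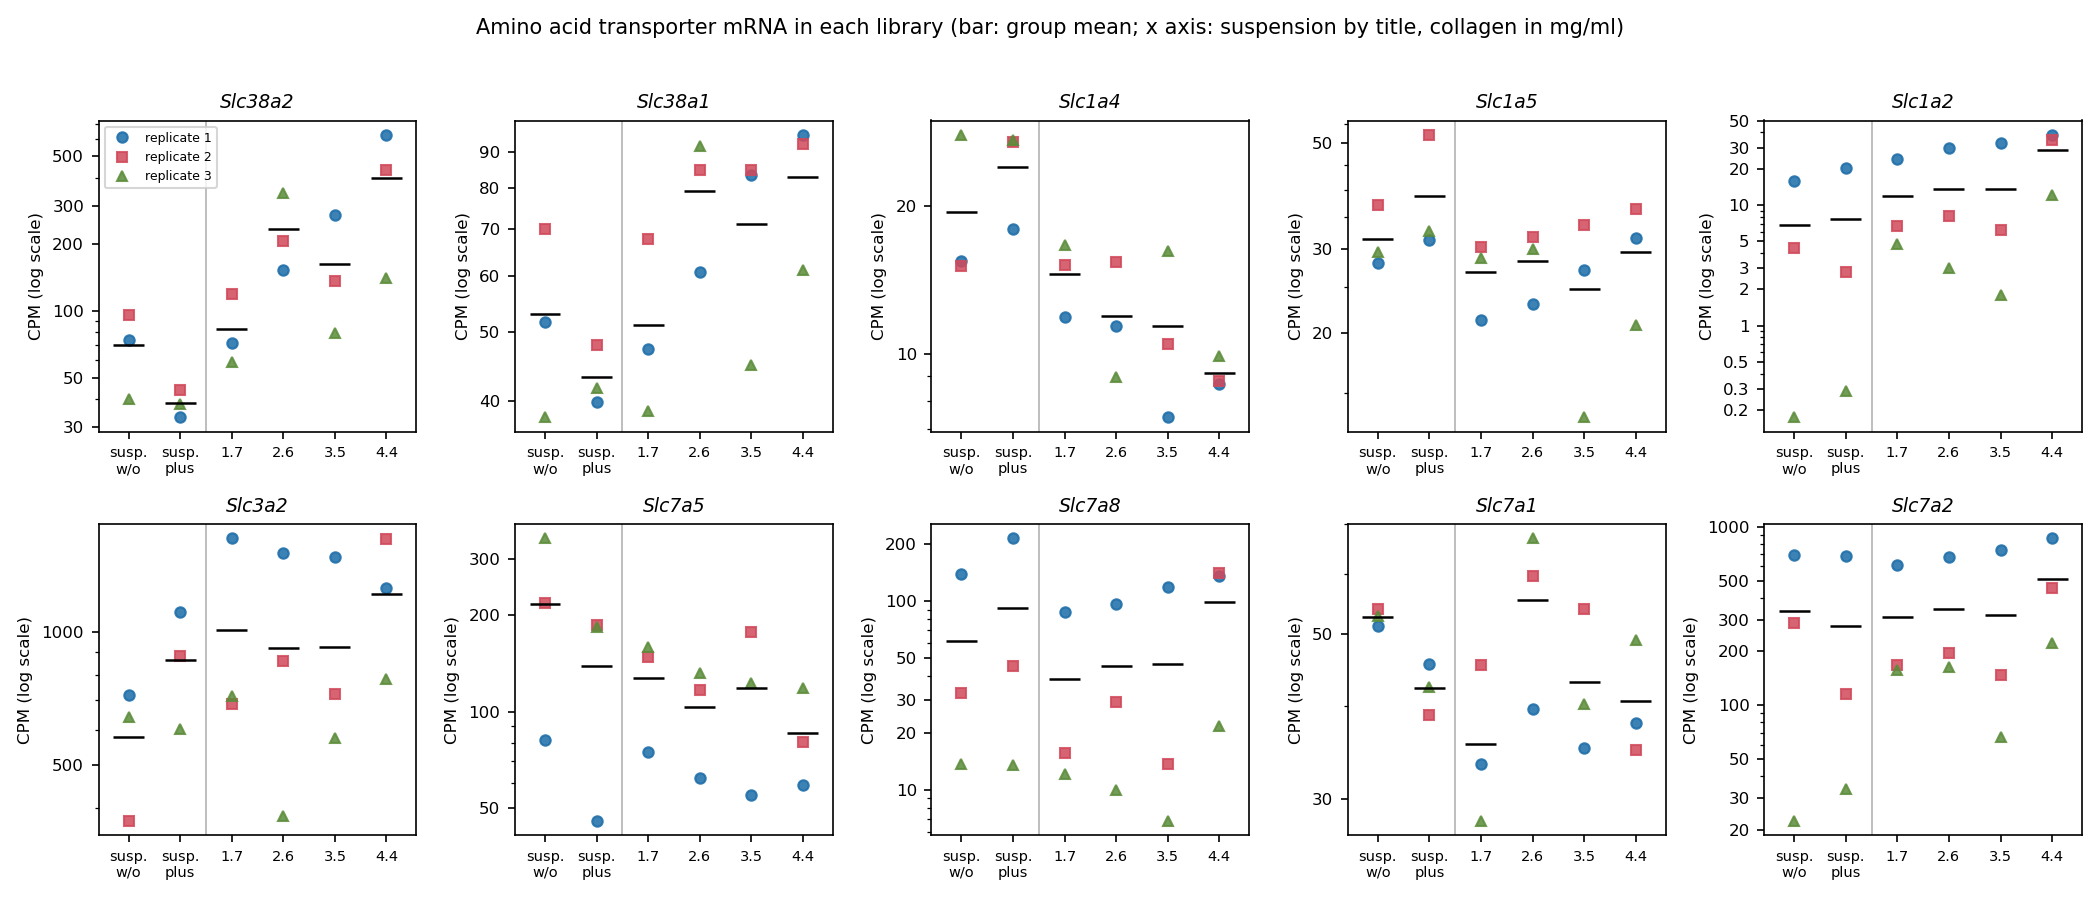
CPM (log axis) of each transporter in the 18 libraries, by group: suspension titled without (w/o) and plus CCL19, then collagen by density from 1.7 to 4.4 mg/ml; symbols mark the replicate and bars the group mean. Slc38a2 spans 33.1 to 628 CPM and Slc1a4 lies at 8.66 to 9.89 CPM at 4.4 mg/ml, below all suspension libraries, whereas Slc1a2, Slc7a2, and Slc7a8 separate by replicate.

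Both carriers of alanine, serine, and cysteine had lower means in collagen, and the fall of Slc1a4 passed the test. Slc1a4 (ASCT1, ENSMUSG00000020142, chromosome 11 from 20302180 to 20332713), which exchanges small neutral amino acids such as serine and alanine, fell from 21.8 ± 6.28 CPM in suspension (SD, n = 6) to 11.7 ± 3.29 CPM in collagen (SD, n = 12). In replicates 1, 2, and 3 it was 17.9, 27.0, and 27.3 CPM in suspension titled plus CCL19 and 15.4, 15.1, and 28.0 CPM in suspension titled without. It was 11.9, 15.2, and 16.7 CPM at 1.7 mg/ml, 11.4, 15.4, and 8.94 CPM at 2.6 mg/ml, 7.41, 10.5, and 16.2 CPM at 3.5 mg/ml, and 8.66, 8.79, and 9.89 CPM at 4.4 mg/ml. Of the 12 collagen libraries, 4 overlapped with the suspension range of 15.1 to 28.0 CPM, and none of these was at 4.4 mg/ml. The fitted change was -0.90 on the log2 scale (standard error 0.21, adjusted p = 0.00936), and -0.89 with the block (adjusted p = 0.00128). It was negative in 3 of 3 replicates, from -1.15 to -0.73. Without replicate 2 the adjusted p was 0.13, with a log2 fold change of -0.98. The 4.4 mg/ml libraries also lay below all those at 1.7 mg/ml, but that difference of -0.68 on the log2 scale did not pass the test (standard error 0.35, adjusted p = 0.718).

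Slc1a5 (ASCT2, ENSMUSG00000001918, chromosome 7 from 16781340 to 16798274), an exchanger through which many proliferating cells take up glutamine, ranged from 28.0 to 52.1 CPM in suspension (median 32.0) and from 13.3 to 36.4 CPM in collagen (median 29.4), with overlap. Its log2 fold change of -0.36 did not pass the test (standard error 0.20, adjusted p = 0.273, and 0.125 with the block), and the within-replicate differences were -0.21, -0.41, and -0.49. The ratio of Slc1a5 to Slc1a4, both as CPM per kilobase of exon, ranged from 0.995 to 2.31 in suspension. It was 1.62 to 1.89 at 1.7 mg/ml, 1.90 to 3.16 at 2.6 mg/ml, 0.772 to 3.45 at 3.5 mg/ml, and 1.98 to 3.90 at 4.4 mg/ml, so that every density overlapped with suspension.

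Promoter sequences are shown for Slc38a2 and Slc1a4 because these genes ended at opposite sides of the set. Each run is the 140 bases before the RefSeq start of the gene (GRCm38.p6, both genes on the minus strand, at chr15:96699729-96699868 and chr11:20332714-20332853), written 5′ to 3′ on the gene's strand. Capitals mark matches, on either strand, to the core of the TATA box (TATAA), to the CCAAT box, or to the core of the GC box (GGGCGG).
Slc38a2: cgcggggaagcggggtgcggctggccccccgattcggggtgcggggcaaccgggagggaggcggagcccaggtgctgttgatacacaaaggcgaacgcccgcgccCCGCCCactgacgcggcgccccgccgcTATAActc
Slc1a4: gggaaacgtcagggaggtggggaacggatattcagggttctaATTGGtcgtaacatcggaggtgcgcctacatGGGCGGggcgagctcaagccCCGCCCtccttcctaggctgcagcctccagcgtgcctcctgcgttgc
The Slc38a2 stretch held 1 GC box core 35 to 30 bases before the start and TATAA 8 to 4 bases before it. The Slc1a4 stretch held a CCAAT match 98 to 94 bases before the start and 2 GC box cores at 67 to 62 and 47 to 42 bases. RefSeq promoters were matched by symbol for 6 of the 10 genes (7 starts, 2 of them of Slc7a1). In the 250 bases before these starts, GGGCGG was found at 5 of 7 (32.74% of 32851 promoters), TATAA at 2 of 7 (22.78%), and CCAAT at 1 of 7 (33.85%). TGATGNAA, the core of amino acid response elements, was found at 0 of 7 (3.452% of all promoters), and TGACGTCA, the cyclic AMP response element, at 0 of 7 (1.546%). These matches are descriptions of letters in this window. Response elements of transporter genes can also lie within the gene, which was not searched here.

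Of the 2 chains of the leucine transporter, the heavy chain had a higher mean in collagen than in suspension (1020 and 722 CPM) and the light chain a lower one (109 and 178 CPM), but neither passed the test without the block, and the difference between the chains was not tested. Slc3a2 (CD98, ENSMUSG00000010095, chromosome 19 from 8706882 to 8723369), the heavy chain shared by several light chains, was by far the most abundant of the 10 and ranged from 373 to 1108 CPM in suspension and from 384 to 1633 CPM in collagen. In replicates 1, 2, and 3 it was 1256, 1623, and 783 CPM at 4.4 mg/ml, compared with 1108, 885, and 602 CPM in suspension titled plus CCL19 and 721, 373, and 641 CPM in suspension titled without. Every replicate was higher at 4.4 mg/ml than in either of its own suspension libraries, although the ranges overlapped. The log2 fold change for all collagen groups was 0.52 (standard error 0.31, adjusted p = 0.304, and 0.144 with the block). It was 0.59 with the block and GC and length offsets and passed there (adjusted p = 0.014). For 4.4 mg/ml alone it was 0.79 (standard error 0.42, adjusted p = 0.265), and it passed the test with the block (0.79, adjusted p = 0.0537). This call was lost without replicate 2 at 4.4 mg/ml (0.39, adjusted p = 0.402).

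Slc7a5 (LAT1, ENSMUSG00000040010, chromosome 8 from 121881150 to 121907694), the light chain that imports leucine and other large neutral amino acids, differed in level between the replicates. In suspension it was 45.7, 187, and 184 CPM (titled plus CCL19) and 81.8, 219, and 348 CPM (titled without) in replicates 1, 2, and 3. At 1.7, 2.6, and 3.5 mg/ml it ranged from 55.1 to 177 CPM, and at 4.4 mg/ml it was 59.0, 80.7, and 118 CPM. Collagen was lower than suspension in replicates 2 and 3, by -0.69 and -0.94 on the log2 scale, and not in replicate 1, where the difference was 0.03. Fitted log2 values were -0.69 without the block (standard error 0.34, adjusted p = 0.203), which did not pass the test, and -0.55 with the block (standard error 0.17, adjusted p = 0.024), which did. At 4.4 mg/ml it was -1.01 (standard error 0.52, adjusted p = 0.24), and -0.82 with the block (adjusted p = 0.0258). The latter call was lost without replicate 2 at 4.4 mg/ml (-0.61 with the block, adjusted p = 0.137), a fit that also has fewer libraries at this density. Without replicate 1, Slc7a5 passed with no block for all collagen groups (-0.79, adjusted p = 0.053) and at 4.4 mg/ml (-1.14, adjusted p = 0.0602), and it also passed with no filter on low counts (adjusted p = 0.038 and 0.0444). The block with GC and length offsets ended the call for all collagen groups (-0.31, adjusted p = 0.186). The gene Gm20388 overlaps with Slc7a5 on the opposite strand, and the strand setting of the counting is not given in the sources used here, so that the counts of Slc7a5 are uncertain to this extent.

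Slc7a8 (LAT2, ENSMUSG00000022180, chromosome 14 from 54722209 to 54781946), a second light chain of Slc3a2 for neutral amino acids, followed the replicates more than the groups. It was 87.7 to 215 CPM in the libraries of replicate 1, 13.6 to 140 CPM in replicate 2, and 6.85 to 21.8 CPM in replicate 3. Within replicate 2 it was 45.3 and 32.7 CPM in suspension, 15.7, 29.2, and 13.6 CPM in the gels of 1.7 to 3.5 mg/ml, and 140 CPM at 4.4 mg/ml. In all 3 replicates the densest gel was higher than the loosest, by 0.63, 3.15, and 0.84 on the log2 scale. The log2 fold change of 4.4 against 1.7 mg/ml was 1.37 without the block (standard error 1.22, adjusted p = 0.949) and 1.70 with the block (standard error 0.43, adjusted p = 0.076). Without replicate 2 at 4.4 mg/ml the latter was 0.91 (adjusted p = 0.264). Against suspension, the value with the block was -0.33 for all collagen groups (adjusted p = 0.346) and 0.94 for 4.4 mg/ml (adjusted p = 0.0572), and without that library these became -0.56 (adjusted p = 0.0306) and 0.11 (adjusted p = 0.854). The summed macrophage markers in replicate 2 were 553 to 1411 CPM in the other 5 libraries and 2296 CPM at 4.4 mg/ml. In replicate 1 they were highest at 1.7 mg/ml (3154 CPM), where Slc7a8 was lowest (87.7 CPM). In replicate 3 both were highest at 4.4 mg/ml. In its suspension libraries the markers were lowest (529 and 463 CPM), whereas Slc7a8 (13.6 and 13.7 CPM) exceeded the gels of 1.7 to 3.5 mg/ml (12.2, 9.94, and 6.85 CPM). The part of the markers in the values of Slc7a8 was not tested.

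Neither of the 2 arginine carriers passed the test between collagen and suspension, with or without the block, although Slc7a2 passed with the block plus GC and length offsets. Slc7a1 (CAT1, ENSMUSG00000041313, chromosome 5 from 148327410 to 148399904), the carrier found in most cell types, was the steadiest gene of the set and ranged from 38.8 to 53.9 CPM in suspension (median 48.3) and from 28.1 to 67.1 CPM in collagen (median 40.0). The fitted difference was -0.13 on the log2 scale (standard error 0.16, adjusted p = 0.657). The replicates did not share a sign, with -0.40, 0.05, and -0.11 on the log2 scale. The sign of the fitted value turned with GC and length offsets (0.08).

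Slc7a2 (CAT2, ENSMUSG00000031596, chromosome 8 from 40862396 to 40922308), which is induced in activated macrophages and supplies arginine for nitric oxide synthesis there, differed more between replicates than between groups. In replicate 1 it was 611 to 865 CPM in all groups. In replicate 2 it was 115 and 290 CPM in suspension, 167, 195, and 147 CPM from 1.7 to 3.5 mg/ml, and 452 CPM at 4.4 mg/ml. In replicate 3 it was 33.6 and 22.4 CPM in suspension, 158, 164, and 66.6 CPM from 1.7 to 3.5 mg/ml, and 223 CPM at 4.4 mg/ml. The 4.4 mg/ml library was the highest of its replicate in all 3. The log2 difference between collagen and suspension was 0.05, 0.24, and 2.35 in replicates 1, 2, and 3, so that the size differed by replicate. Fitted log2 values were 0.25 without the block (standard error 0.69, adjusted p = 0.852) and 0.72 with it (standard error 0.33, adjusted p = 0.116). With the block and GC and length offsets the value was 0.83 and passed (adjusted p = 0.035). At 4.4 mg/ml the value with the block was 1.39 (standard error 0.43, adjusted p = 0.0262), and without replicate 2 at 4.4 mg/ml it was 1.26 (adjusted p = 0.107). Gm26584 overlaps with Slc7a2 on the opposite strand, with the same uncertainty as above. The summed macrophage markers in replicate 3 were 529 and 463 CPM in suspension, 1212, 885, and 605 CPM from 1.7 to 3.5 mg/ml, and 1575 CPM at 4.4 mg/ml, in the same order of libraries as Slc7a2 except for 1.7 and 2.6 mg/ml. In replicate 1 the order differed: from 1.7 to 4.4 mg/ml the markers fell from 3154 to 2708 CPM, whereas Slc7a2 rose from 611 to 865 CPM. In replicate 2 both were highest at 4.4 mg/ml. In suspension there, the markers were 1330 CPM (titled plus CCL19) and 553 CPM (titled without), with Slc7a2 at 115 and 290 CPM. The part of the markers in its values was not tested.

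Slc1a2 (GLT-1, ENSMUSG00000005089, chromosome 2 from 102658659 to 102790784), the glutamate carrier best known from astrocytes, was the least abundant of the set. In replicates 1, 2, and 3 it was 20.1, 2.79, and 0.290 CPM in suspension titled plus CCL19 and 15.9, 4.37, and 0.174 CPM in suspension titled without. It was 24.0, 6.66, and 4.78 CPM at 1.7 mg/ml, 29.7, 8.17, and 3.01 CPM at 2.6 mg/ml, 32.6, 6.18, and 1.79 CPM at 3.5 mg/ml, and 38.4, 34.8, and 12.2 CPM at 4.4 mg/ml. Every collagen library was above both suspension libraries of its own replicate, whereas across replicates the ranges overlapped. In replicate 3 its libraries had the same order as the summed macrophage markers given for Slc7a2, and in replicate 2 both were highest at 4.4 mg/ml. In replicate 1 Slc1a2 was highest at 4.4 mg/ml and the markers at 1.7 mg/ml (3154 CPM, compared with 2708 CPM at 4.4 mg/ml). The part of the markers in its values was not tested. Suspension in replicate 3 held only 7 and 3 counts, at or near the floor of 3 counts, so that the log2 difference of 3.69 in that replicate depends on the prior count of 2. In replicates 1 and 2 the difference was 0.78 and 1.55. The fitted log2 fold change, given without a test, was 1.11 (standard error 0.84), and 1.77 with the block (standard error 0.40). Gm13872 overlaps with Slc1a2 on the opposite strand.

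**Figure D2:**
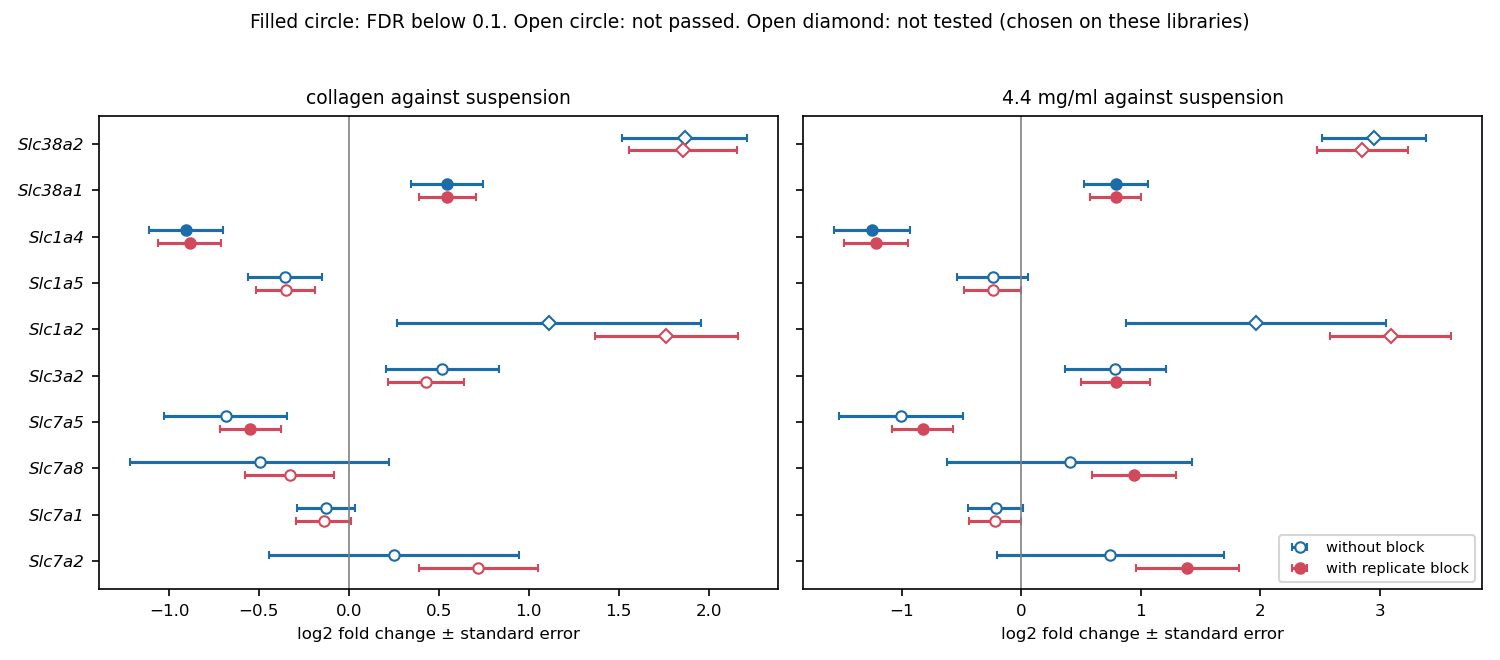
Fitted log2 fold change with its standard error for each transporter, for all collagen groups (left) and 4.4 mg/ml (right) against suspension, without (blue) and with (red) the replicate block; filled circles passed an FDR of 0.1 and diamonds were not tested. Slc38a1 and Slc1a4 are filled in both fits, at 0.55 and -0.90 on the left without the block.

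Of the 8 tested genes, 2 passed the test between collagen and suspension, Slc38a1 higher and Slc1a4 lower, next to 20.2% of all 13844 genes tested. With the block, 3 passed (Slc38a1, Slc1a4, and Slc7a5), next to 34.8% of all genes. The median log2 fold change of the 8 was -0.24, compared with 0.0027 over all genes, and 3 of the 8 were positive. The share that passed was thus near that of all genes.

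The densities differed in how many transporters passed, and they share the suspension libraries as controls. At 1.7 mg/ml none of the 8 passed in edgeR with or without the block (0.0361% and 2.91% of all genes), none had an unadjusted p under 0.05 without the block, 1 had one with it, and DESeq2 called none. At 2.6 mg/ml none passed without the block (7.87% of all genes), 2 had an unadjusted p under 0.05, and both of these, Slc38a1 (0.77, adjusted p = 0.0247) and Slc1a4 (-0.82, adjusted p = 0.0455), passed with the block (21.6% of all genes); DESeq2 called 2. At 3.5 mg/ml none passed without the block (4.9% of all genes), with 1 at an unadjusted p under 0.05, and with the block Slc1a4 passed (-0.95, adjusted p = 0.0282), next to 18.4% of all genes. DESeq2 called 1 there. At 4.4 mg/ml Slc38a1 (0.79, standard error 0.27, adjusted p = 0.0764) and Slc1a4 (-1.25, standard error 0.32, adjusted p = 0.0216) passed without the block, next to 14.8% of all genes. With the block 6 of the 8 passed, next to 31.9% of all genes. These were Slc38a1, Slc3a2, Slc7a2, and Slc7a8 on the higher side and Slc1a4 and Slc7a5 on the lower side. Without replicate 2 at 4.4 mg/ml, the block left 2 of these 6, Slc38a1 and Slc1a4. Without the block, leaving out that library left only Slc1a4, leaving out replicate 1 gave Slc1a4 and Slc7a5, and leaving out replicate 2 or replicate 3 left none.

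Within collagen, the linear slope over the 4 densities passed in none of the 8 in edgeR, next to 0.00722% of all genes, and 0 had an unadjusted p under 0.05. With the block none passed either (1.45% of all genes), and 3 had an unadjusted p under 0.05, namely Slc7a8 with 0.53 log2 per mg/ml (adjusted p = 0.116), Slc1a4 with -0.23 (adjusted p = 0.323), and Slc38a1 with 0.21 (adjusted p = 0.301). DESeq2 called none. Between 4.4 and 1.7 mg/ml none passed without the block (0.00722% of all genes), 1 had an unadjusted p under 0.05, and DESeq2 called none, and with the block Slc7a8 alone passed (1.73% of all genes). Between the suspension groups none passed with or without the block (0% of all genes in both), with 1 and 0 at an unadjusted p under 0.05, and DESeq2 called none. Slc7a5 was the gene with an unadjusted p under 0.05 there, with a log2 difference of plus minus without of -0.66 with the block (standard error 0.28, adjusted p = 0.33).

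**Figure D3:**
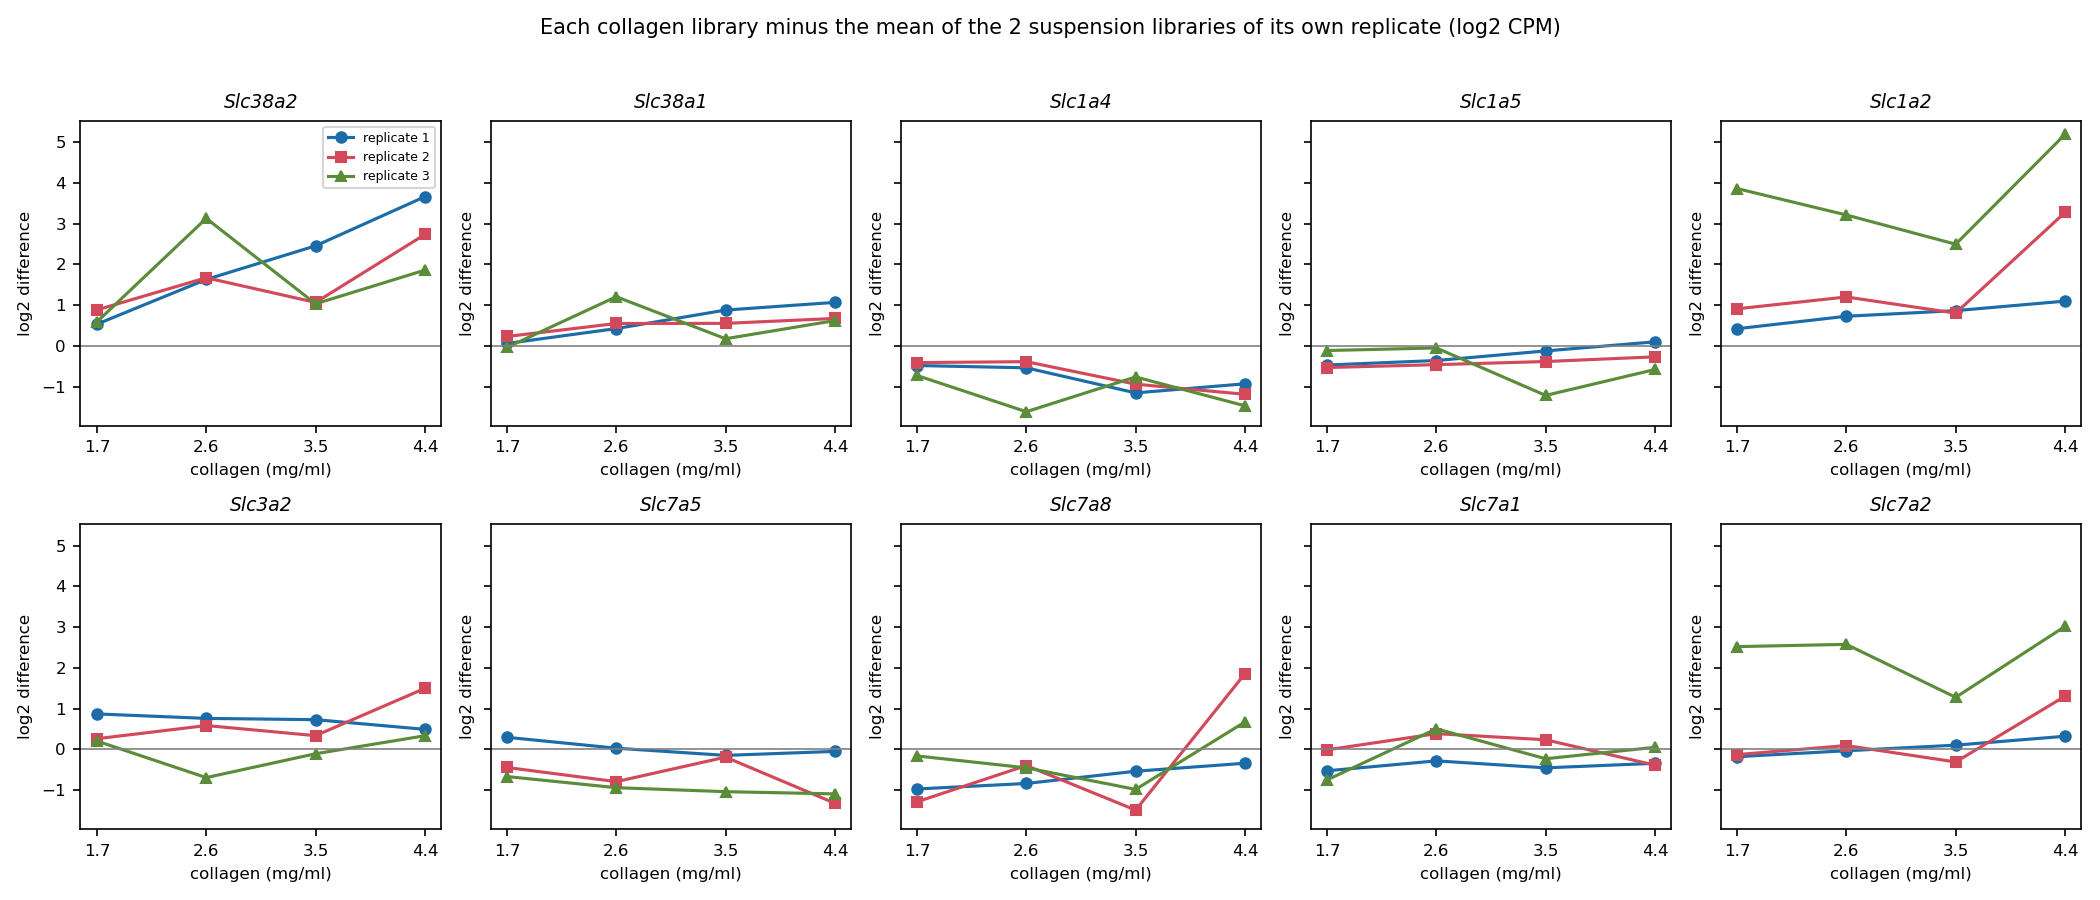
Log2 CPM of each collagen library minus the mean of the 2 suspension libraries of its replicate, against the collagen density (mg/ml), 1 line per replicate. Slc38a2 lies above 0 in all 12 libraries and Slc1a4 below 0 in all 12, and Slc1a2 and Slc7a2 are set apart by replicate 3.

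How much of each gene's spread lay between replicates divided the set. Of the sum of squares of log2 CPM over the 18 libraries, the replicate took 77.5% for Slc7a8, 71.2% for Slc7a2, 66.7% for Slc7a5, and 58.5% for Slc1a2, compared with a median of 25.5% over all genes tested. Slc3a2 (46.0%) and Slc1a5 (35.2%) also lay above this median. The group took 76.8% for Slc38a2, 68.5% for Slc1a4, and 55.0% for Slc38a1, compared with a median of 33.6%. Slc38a2 is in the study's heat map of these libraries, so its group share was favored by that choice and is a description. Slc7a1 (48.7%) also lay above the median for the group, with the smallest standard deviation of the set (0.32 on the log2 scale). By replicate means, Slc1a2, Slc3a2, Slc7a2, Slc7a8, and Slc38a2 were highest in replicate 1 and lowest in replicate 3, for example Slc7a8 at 132, 46.1, and 13.0 CPM and Slc38a2 at 205, 173, and 117 CPM in replicates 1, 2, and 3, whereas Slc7a5 was lowest in replicate 1 (63.2 CPM, compared with 155 and 177 CPM). Replicate 1 also had the highest macrophage markers, as given above, and in every group the lowest summed neutrophil markers. Its summed DC markers in suspension were 19266 CPM (titled plus CCL19) and 15691 CPM (titled without), compared with 46954 and 48443 CPM in replicate 3. At 1.7 and 2.6 mg/ml the DC markers were not lowest in replicate 1. The part of these markers in the replicate differences was not tested.

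**Figure D4:**
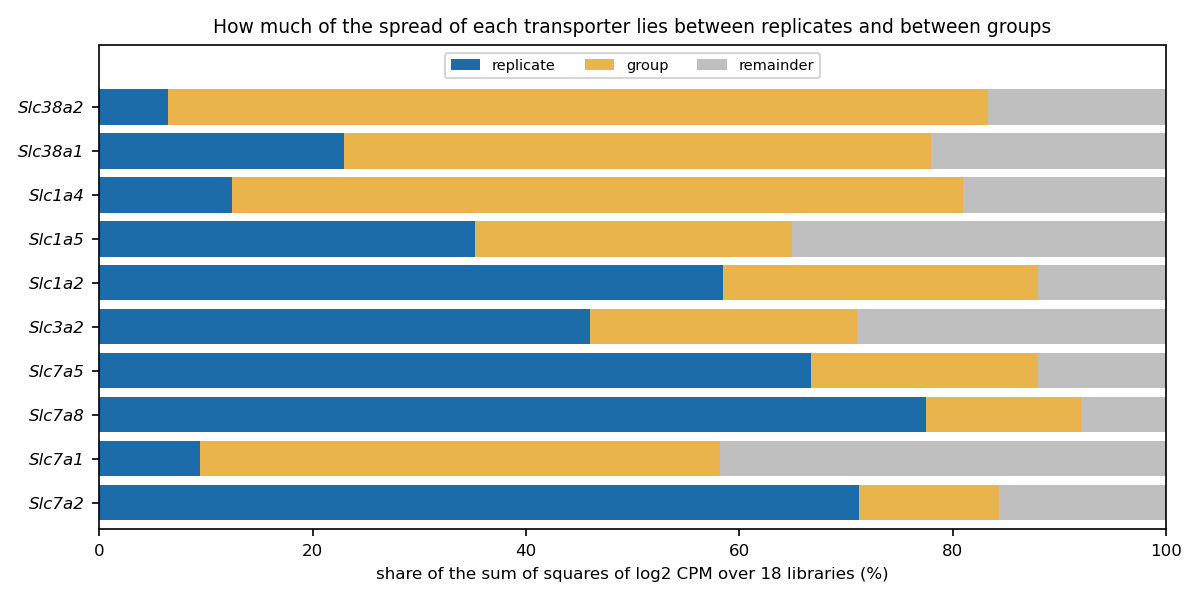
Share (%) of the sum of squares of log2 CPM over 18 libraries that lies between replicates (blue), between groups (yellow), and in the remainder (gray), for each transporter. The group part is 76.8% for Slc38a2, which is in the study's heat map of these libraries, and 14.5% for Slc7a8.

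Levels of different genes were compared as CPM per kilobase of the union of exons, which does not account for the transcripts in use. By this measure the mean over all libraries was 261 for Slc3a2, 38.4 for Slc7a2, 35.5 for Slc7a5, 18.7 for Slc38a2, 12.7 for Slc7a8, 7.18 for Slc1a5, 3.90 for Slc7a1, 3.84 for Slc1a4, 3.68 for Slc38a1, and 1.04 for Slc1a2. The lowest library of Slc3a2 (106) was above the highest library of every other gene (94.6, of Slc7a2), whereas Slc7a1, Slc1a4, and Slc38a1 had overlapping ranges within 1.89 to 7.13. The transcripts of the heavy chain thus exceeded those of its light chain Slc7a5 in every library, by a ratio of 1.79 to 25.5 in suspension and 3.06 to 28.2 in collagen. Slc3a2 made up 61.2% ± 9.59 of the summed level of the 10 in suspension (SD, n = 6) and 68.6% ± 7.64 in collagen (SD, n = 12). The share of Slc7a5 was 16.4% ± 10.8 and 9.07% ± 5.72, and that of Slc38a2 was 2.06% ± 1.35 and 6.21% ± 4.47. The ratio of Slc38a2 to Slc38a1 did not overlap between the conditions, at 1.62 to 2.79 in the 6 suspension libraries and 2.95 to 12.9 in the 12 collagen libraries, although Slc38a2 was chosen for its rise and the ratio is a description.

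**Figure D5:**
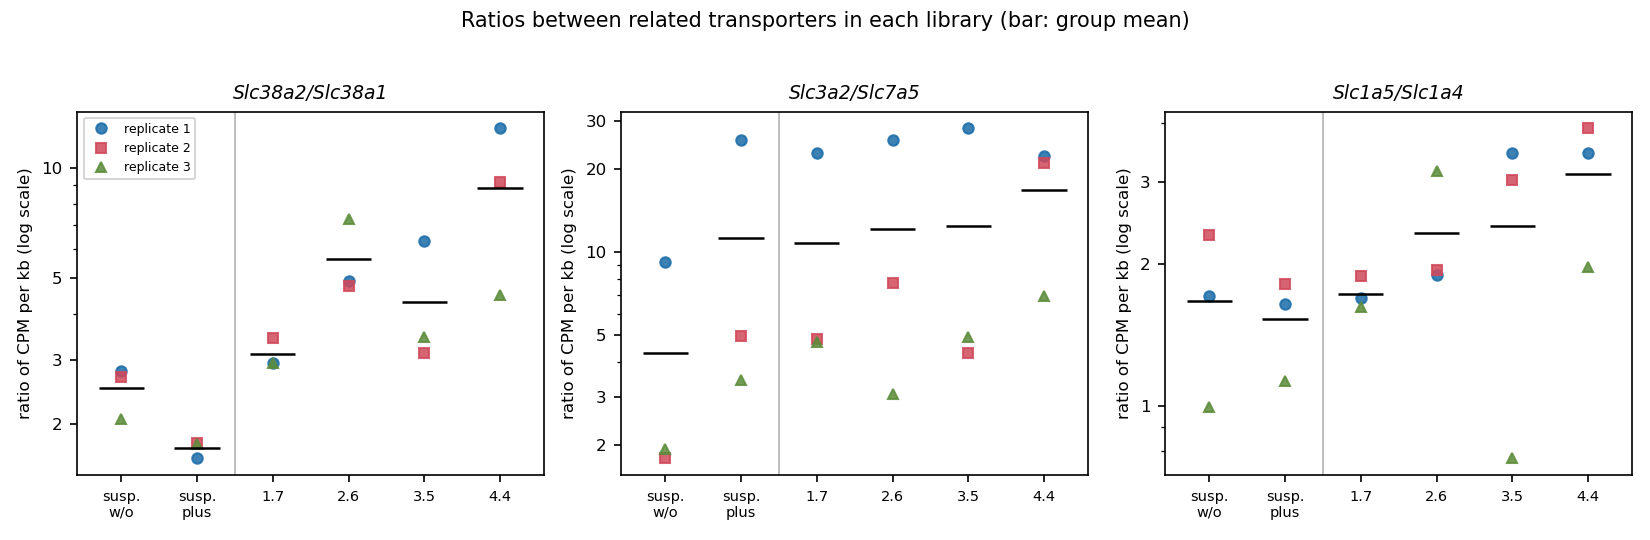
Ratios of CPM per kilobase (log axis) in each library by group, for Slc38a2 to Slc38a1, Slc3a2 to Slc7a5, and Slc1a5 to Slc1a4; symbols mark the replicate and bars the group mean. The first ratio is 1.62 to 2.79 in suspension and 2.95 to 12.9 in collagen, and the second differs mainly by replicate.

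Profiles were compared with the replicate means removed. Over the 18 libraries, which share groups and scaling, Pearson's r of log2 CPM was 0.96 between Slc38a1 and Slc38a2 and 0.92 between Slc1a2 and Slc7a2. It was -0.87 between Slc1a4 and each of Slc38a1 and Slc38a2, -0.80 between Slc1a2 and Slc1a4, -0.77 between Slc1a2 and Slc7a5, and -0.75 between Slc1a4 and Slc7a2. The other pairs lay between -0.67 and 0.64. Among all genes tested, the closest to Slc38a2 were Nfe2l2, the transcription factor NRF2 (r = 0.97), Rsbn1 (0.97), and Ddx3x, an RNA helicase (0.97). Closest to Slc38a1 were Nufip2 (0.97), Togaram1 (0.96), and 1810013L24Rik (0.96), and among the closest to Slc1a4 were Prpf19, a splicing factor (0.96), and the formin Fmnl1 (0.96). Slc3a2 was closest to Clic1 (0.97), H2-DMa, a chaperone of MHC class II loading (0.97), and Mpst (0.97). Slc7a5 was closest to Aldh18a1, an enzyme of proline synthesis (0.89), Fgd2 (0.87), and Kynu, an enzyme of tryptophan breakdown (0.86). Slc7a2 was closest to Slc1a2 itself (0.92), Alkbh5 (0.89), and the macrophage elastase Mmp12 (0.89), and Slc1a2 to Ms4a4c (0.95), Pmp22 (0.94), and U90926 (0.94). The closest genes to Slc7a8 were Trpm4 (0.93), Stoml1 (0.91), and Grap (0.90), those to Slc7a1 were Nfe2l1 (0.93), Zc3h18 (0.89), and Elmsan1 (0.88), and those to Slc1a5 were B3gntl1 (0.88), Tspyl4 (0.86), and Gm17055 (0.85). These values describe 18 libraries and carry no test.

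Other genes of amino acid transport and sensing were read from lists chosen by function, next to 7.78% of all genes that were higher and 12.4% that were lower in collagen. With the block these shares were 15.6% and 19.3%, against which the counts with the block below are to be read. Atf4, Flcn, and Arg2, which are in the study's heat map of these libraries, were kept in the counts of their lists. Of 36 further plasma membrane transporters, 13 passed the filter, of which 2 rose and 2 fell. Slc7a11, the cystine and glutamate exchanger that also pairs with Slc3a2, rose from 141 ± 78.2 CPM (SD, n = 6) to 272 ± 92.8 CPM (SD, n = 12), with a log2 fold change of 0.98 (adjusted p = 0.0494). Slc43a2 (LAT4), which works without the heavy chain, fell from 115 ± 72.8 to 43.8 ± 24.1 CPM (-1.41, adjusted p = 0.0338). Slc3a1, a heavy chain of another transporter, rose as well but stayed at or below 1.03 CPM in every library. The other gene that fell was Slc38a10 (-0.94, adjusted p = 0.012). With the block 6 rose and 2 fell. The median log2 fold change of the 13 was 0.33.

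Of 18 tested carriers of lysosomes and mitochondria, 0 rose and 5 fell, with a median log2 fold change of -0.39. Examples were Slc25a29, a mitochondrial carrier of basic amino acids (-1.71, adjusted p = 0.0437), Slc29a3, a lysosomal nucleoside carrier (-0.97, adjusted p = 0.00936), and Sfxn3, a mitochondrial sideroflexin (-0.84, adjusted p = 0.0705). The other 2 were the lysosomal sialic acid carrier Slc17a5 (-0.80, adjusted p = 0.0299) and the cystine carrier Ctns (-0.53, adjusted p = 0.0586). With the block 2 rose and 9 fell.

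Genes of the amino acid response, in which ATF4 turns on its targets when amino acids run short, were mixed. The list is not confined to targets of ATF4 and holds Atf4 itself. Of 28 tested, 3 rose and 2 fell. Nupr1, a stress-induced nuclear protein, rose from 14.9 ± 6.93 CPM (SD, n = 6) to 44.6 ± 20.6 CPM (SD, n = 12) with a log2 fold change of 1.54 (adjusted p = 0.0102). The factor Atf4 rose from 234 ± 139 to 672 ± 308 CPM (1.47, adjusted p = 0.0151), but it is in the study's heat map of these libraries and is no independent evidence. Slc7a11, given above, is the other gene that rose. Asns, the asparagine synthetase that is a textbook target of ATF4, fell from 50.6 ± 28.8 to 32.3 ± 5.63 CPM (-0.63, adjusted p = 0.0689). Sesn2, which senses leucine, fell by 0.49 on the log2 scale (adjusted p = 0.062). Several transporters are known targets of this response, among which Slc7a11, Slc38a2, and Slc3a2 had higher and Slc1a4, Slc1a5, Slc7a1, and Slc7a5 lower means in collagen. Of those tested, Slc7a11 and Slc1a4 passed without the block. Of the cytosolic aminoacyl-tRNA synthetases, several of which are ATF4 targets too, 0 of 20 rose and 4 fell, with Lars (-0.72, adjusted p = 0.0716), Vars (-0.67, adjusted p = 0.0524), and Wars (-0.60, adjusted p = 0.0552) as the largest and Aars (-0.56, adjusted p = 0.0715) as the other. With the block these counts were 9 up and 4 down for the response genes and 0 up and 8 down for the synthetases.

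Among 34 genes that signal amino acid supply to the kinase complex mTORC1, 6 rose and 10 fell. Rptor, the gene of the mTORC1 subunit raptor, fell from 98.5 ± 23.1 CPM (SD, n = 6) to 41.1 ± 16.1 CPM (SD, n = 12), with a log2 fold change of -1.29 (adjusted p = 0.000809). Flcn, the folliculin gene that acts on Rag GTPases, rose from 36.7 ± 16.1 to 126 ± 75.8 CPM (1.65, adjusted p = 0.00666) and is in the study's heat map as well. Bmt2, a sensor of S-adenosylmethionine, rose from 37.1 ± 16.4 to 98.9 ± 50.1 CPM (1.45, adjusted p = 0.00518). Of 23 tested genes of arginine, glutamine, glutamate, and leucine metabolism, 4 rose and 1 fell. Sms, the spermine synthase, rose at a low level from 1.79 to 4.01 CPM (1.24, adjusted p = 0.0151), and Gclm, a subunit of the enzyme that starts glutathione synthesis, rose from 61.2 ± 24.6 to 134 ± 39.4 CPM (1.12, adjusted p = 0.0122). The arginase Arg2 rose as well (1.03, adjusted p = 0.0334) but is in the heat map, and the glutaminase Gls2 fell (-0.67, adjusted p = 0.0733). With the block 9 rose and 12 fell among the mTORC1 genes, and 6 rose and 2 fell among the metabolic genes. No gene of any of these lists passed in the density trend without the block, and with it Ppp1r15a, Atf4, and Flcn passed as rising and Rptor as falling. Atf4 and Flcn are in the study's heat map of genes that rise in denser collagen in these libraries, so their passing is no independent evidence.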

How the data were processed

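The authors deposited whole-number read counts per Ensembl gene, from 50-base single-end reads of stranded mRNA libraries. The submitters' processing notes and the methods give STAR 2.7.0f and GRCm38, the methods name RSEM for TPM values, which were not used here, and the tool behind these counts is not given in the sources used here. Groups and replicate numbers came from the sample titles. Everything else was computed from these counts with R 4.3.3, edgeR 4.0.16 (filterByExpr, TMM scaling, 1 quasi-likelihood fit over 18 libraries and 6 groups, FDR 0.1), DESeq2 1.42.0 and limma 3.58.1, with a prior count of 2 for log2 CPM. Symbols, coordinates, and exon lengths came from GENCODE, and promoters from RefSeq. Each standard error is the log2 fold change over the root of F. Biological variation between libraries came to 49.0% (33.1% in the blocked fit). On simulated data, 194 of 200 genes changed between collagen and suspension were recovered among 13330 genes, with 21 false calls. The simulation gave every gene the same spread, below that of the fit without the block, and no difference between replicates. Its planted changes were larger than those fitted for Slc38a1 and Slc1a4. The recovery is therefore no measure of how many changes of such size are found in these data. 

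Replicate numbers pair libraries by the dated prefix of their names: over genes, deviations from the group mean had a mean r of 0.43 for equal numbers (45 pairs, -0.15 to 0.85) and of -0.21 for unequal ones (90 pairs). Deviations cancel out within each group, so the negative mean r largely follows from the positive one and is no separate evidence. The members and lists were chosen with earlier results of these data known. Named genes were the 10, up to 3 per list with the largest change past the threshold, and the 3 closest in profile to each of the 10; further genes behind counts of 5 or fewer were named after their values were seen, and a few genes that the rule would name are not reported here (the next of the list then took the place). Alternatives were the replicate block, DESeq2's size factors or test, no filter, an FDR of 0.05, other sets of libraries, and GC and length offsets (loess, span 0.5). The block without replicate 2 at 4.4 mg/ml was chosen after seeing the data.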

Additional observations from a re-analysis of the deposited data

How the results depend on the processing

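Of the 8 tested transporters, 2 passed between collagen and suspension. The count was 4 with the replicate block and GC and length offsets, 4 with the block and without replicate 2 at 4.4 mg/ml, 1 at an FDR of 0.05, and 0 to 2 when libraries were left out. At 4.4 mg/ml, where 2 passed, it was 6 with the block, 6 with the block and the offsets, 1 at an FDR of 0.05, and 0 to 2 when libraries were left out. At 2.6 mg/ml, where 0 passed, it was 2 with the block, 2 with DESeq2, 2 with the block and the offsets, and 3 with the block and without replicate 2 at 4.4 mg/ml. At 3.5 mg/ml, where 0 passed, it was 1 with the block, 1 with DESeq2, 1 with the offsets, 2 with the block and the offsets, and 3 with the block and without replicate 2 at 4.4 mg/ml. For 4.4 against 1.7 mg/ml the block gave 1 and the block with offsets 2, and for the trend the latter gave 2, against 0. The cause of these shifts was not tested. The count of 2 covered Slc7a5 and Slc1a4 in place of Slc38a1 and Slc1a4 without replicate 1 and with no filter, for all collagen groups and at 4.4 mg/ml. In the other comparisons, 1.7 mg/ml against suspension and the suspension groups, the count was 0 under every alternative run.

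Of the single values under alternatives, 931 kept their direction and their side of the threshold, 39 newly passed, 15 no longer passed, and 29 turned in sign, none of them a value that passed. With GC and length offsets, and with these and the block, Slc7a1 became 0.083 and 0.079 (collagen), 0.18 and 0.17 (3.5 mg/ml), and 0.091 and 0.073 (4.4 mg/ml), and between the suspension groups Slc1a5 became -0.018 and -0.020, Slc7a2 0.32 and 0.18, and Slc38a1 0.21 and 0.20. When libraries were left out, the log2 difference of Slc7a1 ranged from -0.23 to 0.024 (collagen), from -0.33 to 0.052 (3.5 mg/ml), and from -0.11 to 0.49 (4.4 against 1.7 mg/ml), that of Slc7a2 from -0.19 to 0.65 (1.7 mg/ml), from -0.031 to 0.77 (2.6 mg/ml), and from -1.08 to 0.080 (suspension groups), and that of Slc7a8 from -0.20 to 1.75 (4.4 mg/ml). That of Slc1a5 and Slc3a2 between 4.4 and 1.7 mg/ml ranged from -0.034 to 0.39 and from -0.21 to 0.84, and the slopes of Slc1a5, Slc3a2, and Slc7a1 ranged from -0.039 to 0.15, from -0.057 to 0.29, and from -0.056 to 0.11. With the block and without replicate 2 at 4.4 mg/ml, Slc3a2 had a slope of -0.00175 and a difference between 4.4 and 1.7 mg/ml of -0.020. With no filter, Slc7a2 was -0.025 at 1.7 mg/ml. In DESeq2's fit the median log2 fold change between collagen and suspension was 0.20, but over all genes with a count, including those that the filter removes. In edgeR with no filter this median was 0.084, and with DESeq2's size factors on the filtered genes it was 0.037. GC and length offsets moved the share of higher calls at 3.5 mg/ml from 40.2% to 63.9%. Depth limits Slc1a2 most, with 3 to 851 counts per library.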
